A study of Mus musculus with 4 samples.

Results

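The 10 genes described here are expressed by the fibroblasts of the leptomeninges, the arachnoid and pia that cover the brain, and they were chosen by name as *Slc22a6*, *Slc6a20a*, *Slc13a4*, *Slc47a1*, *Igf2*, *Dcn*, *Lum*, *Ogn*, *Aldh1a2* and *Ptgds*. All 10 were found among the 23420 gene symbols of the count tables, and all 10 were among the 16232 genes that passed the filter on low counts and were tested. They were measured by RNA-seq of total RNA from prefrontal cortex (PFC) of C57BL6/J mice, 2 samples labelled as injected with GFP-AAV9 (GFP control) and 2 samples labelled as injected with shRNA_ASH1L-AAV9 (Ash1L shRNA). Mice were 6 to 8 weeks old by the text of the series, which counts 3 knockdown and 2 control mice, while the methods state that tissue of several mice was pooled for each sample and describe the control virus as scrambled shRNA AAV. Both groups carried a GFP-tagged AAV vector and a stereotaxic injection into medial PFC, and punches were taken where GFP fluoresced. The shRNA was under the U6 promoter, which is active in most cell types, so the knockdown is not limited to neurons by its promoter. As a check of the labelled tissue, the cortical neuron genes *Slc17a7* and *Snap25* were abundant in the 4 samples, at 754 to 1069 and 2002 to 2881 CPM. CPM are counts-per-million, a gene's share of its library's counts.

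Leptomeningeal fibroblasts secrete the collagen and proteoglycan matrix that wraps the brain and, in the arachnoid, form part of the barrier between blood and cerebrospinal fluid. Their transporters move organic anions and cations, amino acids and sulfate across that barrier. They are also a source of IGF2 and of retinoic acid for the developing cortex, and of lipocalin-type prostaglandin D synthase, a major protein of cerebrospinal fluid. The medial PFC lies against the midline, where pia and arachnoid enter the fissure between the hemispheres, so that a punch can hold a varying amount of meninges. A difference of that kind moves genes expressed only in 1 population by a common factor, which need not hold for genes with other sources. Whether the amount of meninges differed between the samples was not tested. None of the 10 genes is exclusive to these cells. *Ptgds* is also a gene of oligodendrocytes, *Igf2* and *Slc13a4* are also expressed in choroid plexus, and *Dcn*, *Lum* and *Ogn* are expressed by fibroblasts around vessels.

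Promoter windows, from 250 bases before to 50 bases after the annotated start, were available from RefSeq (GRCm38.p6) for 7 of the 10 genes. The windows of *Slc6a20a*, *Slc13a4* and *Aldh1a2* are shown because the first pair kept nearly the same ratio to each other in all 4 samples while *Aldh1a2* went the other way. Capitals mark matches to CCTGCTG or its reverse complement, a core of the motif of the ZIC factors of meningeal cells. The *Slc13a4* window lies on the minus strand at chr6:35308077-35308376, that of *Slc6a20a* on the minus strand at chr9:123678783-123679082 and that of *Aldh1a2* on the plus strand at chr9:71215539-71215838.
Slc13a4: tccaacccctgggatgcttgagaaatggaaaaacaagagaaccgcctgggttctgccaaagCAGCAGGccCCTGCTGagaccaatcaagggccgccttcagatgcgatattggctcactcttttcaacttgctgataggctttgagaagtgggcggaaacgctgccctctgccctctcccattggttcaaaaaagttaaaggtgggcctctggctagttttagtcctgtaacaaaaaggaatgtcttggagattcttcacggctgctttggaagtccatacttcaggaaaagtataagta
Slc6a20a: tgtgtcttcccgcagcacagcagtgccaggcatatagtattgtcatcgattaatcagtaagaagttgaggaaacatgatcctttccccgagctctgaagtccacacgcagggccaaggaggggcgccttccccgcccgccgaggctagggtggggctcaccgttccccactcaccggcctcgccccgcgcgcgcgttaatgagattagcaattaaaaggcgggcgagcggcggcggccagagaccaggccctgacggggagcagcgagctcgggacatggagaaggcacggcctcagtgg
Aldh1a2: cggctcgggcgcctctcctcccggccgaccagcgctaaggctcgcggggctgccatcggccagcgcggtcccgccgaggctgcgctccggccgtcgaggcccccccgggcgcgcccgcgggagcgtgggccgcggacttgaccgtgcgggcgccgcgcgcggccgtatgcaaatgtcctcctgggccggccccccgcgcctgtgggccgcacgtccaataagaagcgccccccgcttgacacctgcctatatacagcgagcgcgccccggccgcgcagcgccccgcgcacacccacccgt

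The *Slc13a4* window held 1 match in each orientation, starting at bases 62 and 71 of the window, the windows of *Slc6a20a* and *Aldh1a2* held none, and the only other window with a match was the most 3′ of the 4 *Igf2* starts. Of 32851 promoter windows of this length, 10.5% held the letters in either orientation. GTAAACA, a core of the motif of forkhead factors such as FOXC1, was found in 3.65% of all windows and in 0 of the 7 genes. AGGTCA, a core of the motif of retinoid receptors, was found in 16.3% of all windows and at 1 of the 7 genes (*Igf2*), and TATAAA in 13.6% and at 1 gene (*Ogn*). The shares over all windows are per window, while the member counts are per gene. The 7 genes had 10 windows, 4 of them of *Igf2*. CpG content differed widely among the genes, with 50 CpG in the *Aldh1a2* window and 25 in that of *Slc6a20a*, against 6 for *Slc13a4*, 4 for *Ogn*, and 2 each for *Slc22a6* and *Ptgds*. The median over all windows was 7. A match in these letters is a description of the window and does not show binding.

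Library totals ranged from 14251190 counts in GFP control sample 1 to 35764874 in GFP control sample 2, with the Ash1L shRNA samples between. At a given CPM, counting error was thus largest in control sample 1. By gene, *Slc22a6*, *Slc6a20a*, *Slc13a4*, *Igf2*, *Ogn* and *Ptgds* had their fewest counts in Ash1L shRNA sample 2, and the other members in control sample 1. The values below are CPM scaled by TMM, a factor that corrects for differences in library composition. Counts were tested with edgeR's quasi-likelihood test, and genes are called DOWN or UP at a p under 0.05 without adjustment with at least a 1.2-fold change. *Ash1l*, the target of the shRNA, had 245 and 290 CPM in the control samples and 216 and 138 CPM after Ash1L shRNA. It was DOWN, at a log2 fold change of -0.60 (standard error 0.22, adjusted p = 0.275, edgeR's quasi-likelihood F test with Benjamini-Hochberg adjustment over all genes tested). The groups did not overlap, sample 2 of Ash1L shRNA was the lower, and the call was kept without sample 1 (-0.97) but lost without sample 2 (-0.31), control sample 1 (-0.71) or control sample 2 (-0.48). An exact two-sided permutation test of 1 gene, with 2 samples against 2, has 0.333 as its smallest p.

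The 10 genes did not move as 1 block. *Slc22a6*, *Slc6a20a*, *Slc13a4* and *Ptgds* were DOWN, *Lum* was UP, and *Slc47a1*, *Igf2*, *Dcn*, *Ogn* and *Aldh1a2* were not called in either direction. Thus 4 of 10 genes were DOWN, against 8.28% of all genes tested, and 1 of 10 was UP, against 8.61%. For 5 of the 10 the Ash1L shRNA values were both under the 2 control values (26.8% of all genes tested), and for 2 of the 10 both were over them (26.5% of all genes tested). The median log2 fold change of the 10 was -0.65, within a range from -1.23 to 0.72, and the median of all genes tested was -0.0027. With 1 sample left out in turn, the median was -0.72 without control sample 1 and -0.40 without control sample 2. It was -0.98 without Ash1L shRNA sample 1 and -0.29, nearest to 0, without Ash1L shRNA sample 2. After Benjamini-Hochberg adjustment 0 of the 10 were under 0.05 by the quasi-likelihood test of edgeR. Without adjustment 5 of the 10 were, as were 2746 of the 16232 genes tested. DESeq2 and edgeR's likelihood ratio test each placed 2 of the 10, *Slc13a4* and *Ptgds*, under an adjusted p of 0.05. In bulk tissue, fewer cells of a type and less RNA per cell cannot be told apart.

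**Figure D1:**
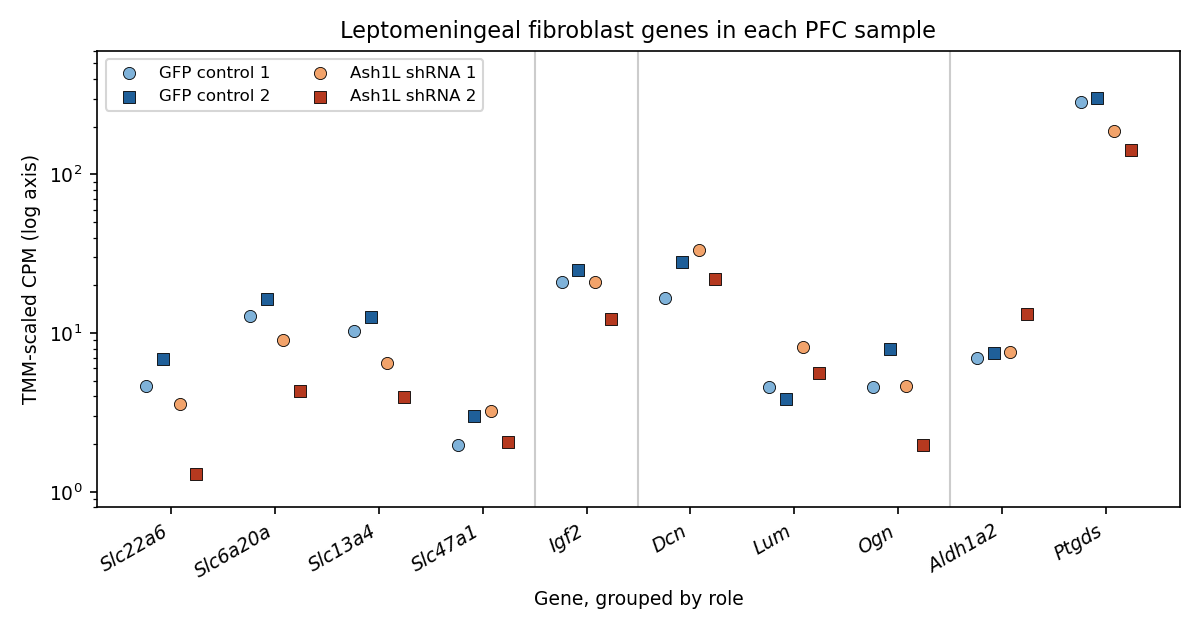
TMM-scaled CPM (log axis) of each of the 10 genes in the 4 samples, with grey lines between transporters, growth factor, proteoglycans and enzymes. For Slc22a6, Slc6a20a, Slc13a4, Ptgds and, narrowly, Igf2 both Ash1L shRNA samples lie below both controls, whereas for Lum and Aldh1a2 both lie above.

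Of the 4 transporters, 3 were DOWN and 1 was flat. *Slc22a6* (ENSMUSG00000024650, chromosome 19 from 8618039 to 8628299, plus strand) encodes OAT1, an exchanger of organic anions, and had 4.68 and 6.87 CPM in control samples 1 and 2 and 3.58 and 1.30 CPM in Ash1L shRNA samples 1 and 2. Its values did not overlap between the groups, but the lowest rested on 27 counts and Ash1L shRNA sample 1 was much closer to the controls than sample 2. The log2 fold change was -1.23 (standard error 0.49, adjusted p = 0.288, edgeR's quasi-likelihood test). It became -2.17 without Ash1L shRNA sample 1 and -0.71 without sample 2, and the gene was no longer DOWN without control sample 1 (-1.47), control sample 2 (-0.93) or Ash1L shRNA sample 2.

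*Slc6a20a* (ENSMUSG00000036814, chromosome 9 from 123634770 to 123678885, minus strand), a sodium-coupled carrier of proline and other imino acids, had 12.9 and 16.3 CPM in the controls and 9.02 and 4.34 CPM in the Ash1L shRNA samples. Both Ash1L shRNA samples were below both controls, and sample 2 had the lowest value. Its log2 fold change was -1.12 (standard error 0.35, adjusted p = 0.260, edgeR's quasi-likelihood test). It was -1.77 without Ash1L shRNA sample 1 and -0.71 without sample 2, and without control sample 2 (-0.94) it was no longer DOWN. Exons of this gene share bases with *Ccr9* on the opposite strand, which had 9 to 61 counts against 90 to 573 for *Slc6a20a*, and no strand setting of the counting is stated.

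*Slc13a4* (ENSMUSG00000029843, chromosome 6 from 35267957 to 35308131, minus strand), a sodium-coupled sulfate carrier, had 10.3 and 12.7 CPM in the controls against 6.46 and 3.96 CPM in the Ash1L shRNA samples. The order of the 4 samples was that of *Slc6a20a*. The fitted log2 fold change was -1.14 (standard error 0.29, adjusted p = 0.253, edgeR's quasi-likelihood test), and without control sample 2 it was -0.99 and no longer DOWN. *Slc47a1* (ENSMUSG00000010122, chromosome 11 from 61343401 to 61378345, minus strand), the extrusion carrier MATE1 for organic cations, had 1.98 and 2.99 CPM in the controls and 3.25 and 2.08 CPM in the Ash1L shRNA samples. The groups overlapped, with a log2 fold change of 0.08 (standard error 0.39, adjusted p = 0.935, edgeR's quasi-likelihood test), which became -0.15 without control sample 1 and -0.30 without Ash1L shRNA sample 1.

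*Igf2* (ENSMUSG00000048583, chromosome 7 from 142650766 to 142666816, minus strand), the imprinted growth factor that meninges and choroid plexus release into cerebrospinal fluid, had 21.0 and 24.8 CPM in the controls. It had 20.9 and 12.3 CPM in the Ash1L shRNA samples. Sample 1 was practically level with control sample 1, and sample 2 alone was clearly lower. This was a log2 fold change of -0.46 (standard error 0.26, adjusted p = 0.399, edgeR's quasi-likelihood test), -0.91 without Ash1L shRNA sample 1, when the gene was DOWN, and -0.14 without sample 2. *Gm49394* on the same strand and the antisense *Igf2os* share exonic bases with *Igf2* and are not among the symbols counted.

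The 3 small leucine-rich proteoglycans went in different directions although all are matrix proteins that bind collagen fibrils. *Dcn* (decorin, ENSMUSG00000019929, chromosome 10 from 97479609 to 97518143, plus strand) had 16.6 and 28.1 CPM in the controls and 33.6 and 21.9 CPM in the Ash1L shRNA samples. These groups overlapped, and the samples of each group lay farther apart than the group means, with a log2 fold change of 0.30 (standard error 0.31, adjusted p = 0.639, edgeR's quasi-likelihood test) that became -0.0049 without control sample 1 and -0.06 without Ash1L shRNA sample 1. *Lum* (lumican, ENSMUSG00000036446), its neighbour on chromosome 10 from 97565128 to 97572703 on the same strand, had 4.61 and 3.85 CPM in the controls and 8.22 and 5.60 CPM in the Ash1L shRNA samples. Both Ash1L shRNA samples were above both controls, and here sample 1 was the farther from them. The log2 fold change was 0.72 (standard error 0.29, adjusted p = 0.288, edgeR's quasi-likelihood test), and the gene was no longer UP without control sample 1 (0.85), control sample 2 (0.58) or Ash1L shRNA sample 1 (0.41), nor with DESeq2 (0.72).

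*Ogn* (osteoglycin, ENSMUSG00000021390, chromosome 13 from 49608046 to 49624501, plus strand) had 4.61 and 7.93 CPM in the controls and 4.67 and 1.98 CPM in the Ash1L shRNA samples. Ash1L shRNA sample 1 lay within the controls and sample 2, at 41 counts, lay below them. The estimate was a log2 fold change of -0.92 (standard error 0.47, adjusted p = 0.359, edgeR's quasi-likelihood test) and the gene was not called, but it was DOWN without Ash1L shRNA sample 1, at -1.70. Without Ash1L shRNA sample 2 it was -0.45.

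The enzymes of retinoic acid and prostaglandin synthesis went opposite ways. *Aldh1a2* (ENSMUSG00000013584, chromosome 9 from 71215789 to 71296243, plus strand), which makes retinoic acid, had 6.94 and 7.47 CPM in the controls and 7.59 and 13.3 CPM in the Ash1L shRNA samples. Both Ash1L shRNA samples were above both controls, but sample 1 by less than the distance between the controls, and sample 2 alone stood clear. Its log2 fold change was 0.53 (standard error 0.30, adjusted p = 0.399, edgeR's quasi-likelihood test), 0.87 without Ash1L shRNA sample 1, when the gene was UP, and 0.07 without sample 2.

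*Ptgds* (ENSMUSG00000015090, chromosome 2 from 25466709 to 25470046, minus strand), the prostaglandin D synthase, had 286 and 304 CPM in the controls and 186 and 143 CPM in the Ash1L shRNA samples. It had the narrowest spread within the groups relative to the difference between them, and 2967 counts or more in every sample. The fitted log2 fold change was -0.84 (standard error 0.15, adjusted p = 0.240, edgeR's quasi-likelihood test). Leaving out any 1 of the 4 samples, it stayed DOWN, between -1.05 and -0.66. It is the least specific of the 10 genes for meninges. Of 10 genes of mature oligodendrocytes, which also express it, 2 were DOWN as well, against 8.28% of all genes tested. These were *Mal*, with a log2 fold change of -0.49, and *Opalin*, with -0.86. Of the 10, 9 had a log2 fold change below 0, against 50.3% of all genes tested, and the median was -0.26. The exception was *Mbp* (0.00), the most abundant of them, which was not called. The part of oligodendrocytes in the fall of *Ptgds* was not tested.

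**Figure D2:**
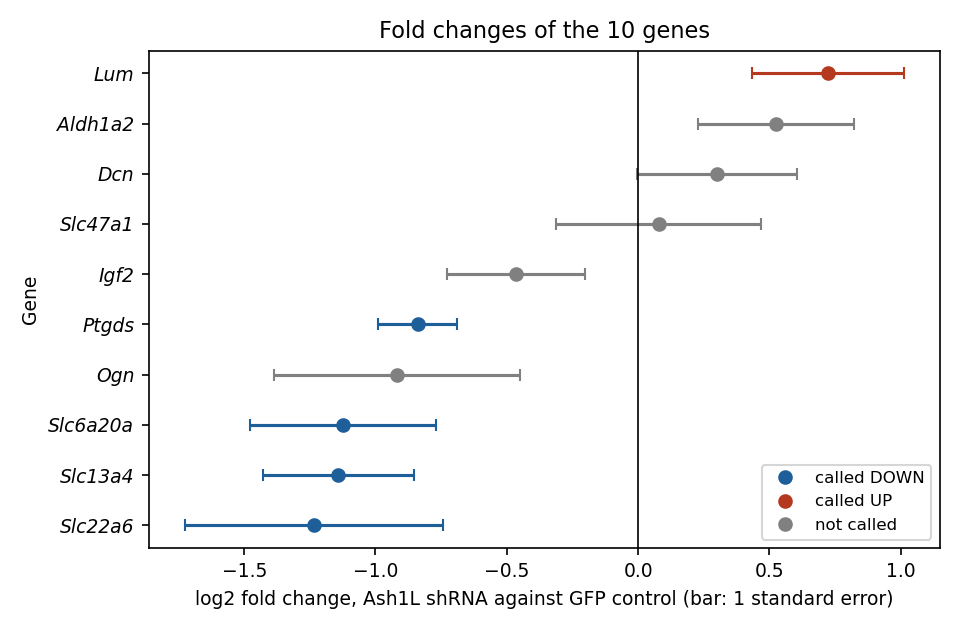
Log2 fold changes of the 10 genes, Ash1L shRNA against GFP control, with bars of 1 standard error from edgeR's quasi-likelihood fit. The estimates run from -1.23 for Slc22a6 to 0.72 for Lum, with 4 genes called DOWN, 1 called UP and 5 not called.

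Set by exonic length, *Ptgds* stood far above the other genes in the control samples, at 179 ± 7.39 CPM per kilobase (SD, n = 2). *Igf2* (4.005 ± 0.47), *Dcn* (3.83 ± 1.38), *Slc6a20a* (3.58 ± 0.60) and *Aldh1a2* (3.18 ± 0.16) followed on the same scale. Of these, *Igf2* lay above *Aldh1a2* by more than their spread, and *Dcn* and *Slc6a20a* overlapped with both. By their means, *Slc13a4* (2.54 ± 0.37) and *Ogn* (2.44 ± 0.92) were lower, then *Lum* (1.73 ± 0.22) and *Slc22a6* (1.45 ± 0.39), and *Slc47a1* was the lowest at 0.74 ± 0.21 CPM per kilobase (SD, n = 2 for each). The spread of *Ogn* overlapped with those of *Dcn* and *Lum*. In the Ash1L shRNA samples *Ptgds*, at 99.9 ± 18.5 CPM per kilobase, again stood apart. *Dcn* (4.75 ± 1.42), *Aldh1a2* (4.61 ± 1.77), *Igf2* (2.90 ± 1.06) and *Lum* (2.82 ± 0.76) overlapped there, as did *Slc22a6* (0.61 ± 0.40) and *Slc47a1* (0.79 ± 0.25) at the low end (CPM per kilobase, SD, n = 2 for each).

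Between the 2 samples of a group, most of the genes differed in the same direction, though by unequal amounts. Control sample 2 was above control sample 1 for 9 of the 10 genes, all but *Lum*, where 50.3% of all genes tested were higher in that sample. Ash1L shRNA sample 1 was above sample 2 for 9 of the 10, all but *Aldh1a2*, where 52.2% of all genes tested were. Both held for 8 of the 10 genes and for 29.1% of all genes tested. On the log2(CPM + 0.5) scale, the step from control sample 1 to control sample 2 ran from -0.23 in *Lum* to 0.74 in *Dcn*, and the step from Ash1L shRNA sample 2 to sample 1 ran from -0.77 in *Aldh1a2* to 1.18 in *Slc22a6*. Relative to the control mean, the median of the 10 genes was -0.15 and 0.15 in control samples 1 and 2, -0.23 in Ash1L shRNA sample 1 and -0.95 in sample 2. The summed level of the 10 was 370 and 414 CPM in the controls and 284 and 210 CPM in the Ash1L shRNA samples, most of it *Ptgds*.

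Across the groups, the genes did not keep a fixed proportion to each other. Counts of 2 genes within 1 library were compared directly, which needs no scaling between libraries. The 4 transporters and 3 proteoglycans were set against each other as role groups, and the single pairs were chosen after their values were seen. Intervals are 95% exact Clopper-Pearson intervals and cover counting error only. The proteoglycans took 46.4% (42.9 to 49.9) and 50.6% (48.7 to 52.5) of the summed counts in control samples 1 and 2. They took 67.6% (65.4 to 69.7) and 71.6% (68.5 to 74.6) in Ash1L shRNA samples 1 and 2. The ratio of proteoglycan to transporter counts was thus 0.865 and 1.02 in the controls and 2.08 and 2.53 in the Ash1L shRNA samples, with no overlap between the groups. *Dcn*, which was not called, supplied most of the proteoglycan counts (235 of 365 and 984 of 1397 in the controls, 920 of 1273 and 454 of 611 in the Ash1L shRNA samples), and *Ogn*, in the same sum, had a log2 fold change of -0.92. As single genes, the ratio of *Dcn* to *Slc6a20a* counts was 1.29 and 1.72 in the controls and 3.73 and 5.04 in the Ash1L shRNA samples.

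Some single pairs differed in proportion between the groups and others did not. The pairs below are within a role, except *Aldh1a2* with *Slc6a20a*, an enzyme and a transporter. Among transporters, *Slc47a1* made up 29.8% (20.8 to 40.1) and 30.3% (25.5 to 35.5) of its summed counts with *Slc22a6* in the controls, and 47.6% (40.3 to 55.0) and 61.4% (49.0 to 72.8) in the Ash1L shRNA samples. Among proteoglycans, *Lum* and *Ogn* had 65 counts each in control sample 1 (an interval of 41.1 to 58.9% for the share of *Lum*), and *Lum* took 32.7% (28.2 to 37.4) of their sum in control sample 2, against 63.7% (58.5 to 68.8) and 73.9% (66.3 to 80.6) in the Ash1L shRNA samples. *Lum* and *Dcn* showed no such difference, and *Lum* took 21.7% (17.1 to 26.8) and 12.1% (10.2 to 14.1) of their summed counts in the controls and 19.6% (17.4 to 22.1) and 20.4% (17.1 to 23.9) in the Ash1L shRNA samples, with overlapping groups. The intervals of control sample 1 and Ash1L shRNA sample 1 met for *Lum* and *Ogn*, and nearly met for *Slc47a1* and *Slc22a6* and for *Aldh1a2* and *Slc6a20a*. *Aldh1a2* made up 35.0% (29.4 to 40.9) and 31.4% (28.2 to 34.6) of its summed counts with *Slc6a20a* in the controls, 45.7% (41.1 to 50.4) in Ash1L shRNA sample 1 and 75.3% (70.6 to 79.7) in sample 2. *Slc6a20a* and *Slc13a4*, in contrast, kept their proportion, and *Slc6a20a* took 55.5% (49.9 to 60.9) and 56.3% (53.2 to 59.4) of their summed counts in the controls and 58.3% (53.4 to 63.0) and 52.3% (44.6 to 59.98) in the Ash1L shRNA samples.

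**Figure D3:**
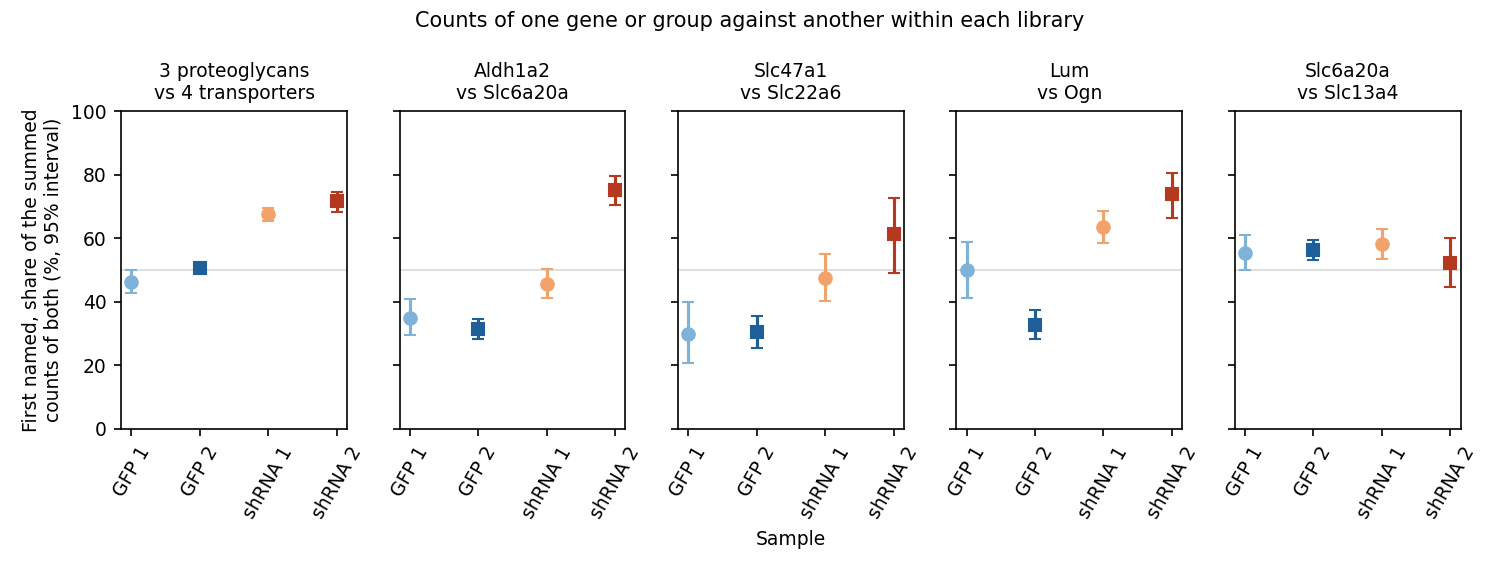
Share (%) of the first named gene or group in the summed counts of both, in each of the 4 libraries, with 95% exact binomial intervals for counting error. The proteoglycan share is 46.4% and 50.6% in the controls and 67.6% and 71.6% in the Ash1L shRNA samples, while Slc6a20a and Slc13a4 keep to between 52.3% and 58.3% in all 4.

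Genes of meningeal fibroblasts outside the 10 were also mixed, with a lean downward in the order of the samples. Of 29 such genes, 27 were tested, 3 were DOWN and 1 was UP, with a median log2 fold change of -0.19. In 11 of the 27, each control exceeded each Ash1L shRNA sample, an order found in 26.8% of all genes tested. The reverse order was found in 2 of the 27, against 26.5% of all genes tested. For this list and those below, the shares over all genes tested were 8.28% DOWN and 8.61% UP. The transporters among them went with those above: *Slc6a13*, a carrier of GABA and taurine, was DOWN (11.5 and 11.3 CPM in the controls, 7.05 and 5.21 CPM in the Ash1L shRNA samples, log2 fold change -0.89), and so was *Slc13a3*, a carrier of dicarboxylates (-0.65). *Serping1*, an inhibitor of complement C1, was DOWN at -0.86. *Col3a1*, a fibrillar collagen, was UP, with 11.97 and 30.3 CPM in the controls, 42.8 and 49.7 CPM in the Ash1L shRNA samples and a log2 fold change of 1.10. *Foxc1*, a forkhead factor of meningeal fibroblasts, had 5.10 and 4.90 CPM in the controls and 4.199 and 3.96 CPM in the Ash1L shRNA samples, with a log2 fold change of -0.29 that was not called. *Col1a2* (0.28) and *Igfbp2* (0.31), the 2 most abundant genes of the list, were not called either. The summed level of the list was 272 and 341 CPM in the controls and 318 and 349 CPM in the Ash1L shRNA samples.

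Genes of activated fibroblasts and scar tissue were read as a separate list, as both groups had an injection. Of 15 tested, 1 was DOWN and 3 were UP, with a median log2 fold change of 0.44. For 7 both Ash1L shRNA samples lay above both controls, against 26.5% of all genes tested. *Lox* (1.46) and *Loxl2* (1.55), which cross-link collagen, and *Cthrc1* (0.94) were UP, and *Col12a1* (-0.40) was DOWN. *Sparc* (0.35) and *Fn1* (0.42), the other abundant genes of this list beside *Col12a1*, were not called. The summed level was 326 and 436 CPM in the controls, 404 CPM in Ash1L shRNA sample 1 and 592 CPM in sample 2. Whether these genes share their source with *Lum* was not tested.

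Several lists of other cell types moved beside the 10 genes. Of 10 astrocyte genes, 8 were DOWN and none UP, at a median of -0.76 on the log2 scale, with examples in *Gja1* (-0.99), *Slc1a3* (-0.94) and *Mlc1* (-1.01). In Ash1L shRNA samples 1 and 2 they deviated from the control mean by a median of -0.47 and -1.10. Of 10 cortical neuron genes, 3 were DOWN (*Syt1*, *Neurod6* and *Tbr1*), with a median of -0.28 and summed levels of 6798 and 7057 CPM in the controls and 6078 and 4916 CPM in the Ash1L shRNA samples. The 10 oligodendrocyte genes, 2 of them DOWN, had a median of -0.26 and summed levels of 2767 and 3155 CPM in the controls and 2948 and 2607 CPM in the Ash1L shRNA samples. For astrocytes the summed levels were 6566 and 6710 CPM in the controls and 5151 and 3586 CPM in the Ash1L shRNA samples. Ash1L shRNA sample 2 was thus the lowest sample for the summed level of each of these lists. It was also the lowest for 6 of the 10 leptomeningeal genes, against 36.1% of all genes tested. The part of these cells in the leptomeningeal values was not tested.

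The vessel lists were nearly level. Of 10 mural cell genes 1 was UP (*Abcc9*, a subunit of a potassium channel of pericytes, 0.41), and the list had a median of 0.03 and summed levels from 263 to 266 CPM in the controls and from 264 to 285 CPM in the Ash1L shRNA samples. Of 10 endothelial genes 1 was UP (*Kdr*, the main receptor of VEGF, 0.63), with a median of 0.14 and summed levels from 297 to 349 CPM in the controls and from 352 to 360 CPM in the Ash1L shRNA samples. Of the macrophage genes, many of them of border macrophages that live in the meninges, 7 of 8 were tested and 1 was DOWN (*Mrc1*, the mannose receptor, -0.47). *Stab1* (0.08) and *F13a1* (0.12) were not called. That list had a median of 0.08 and summed levels from 53.1 to 63.3 CPM in the controls and from 49.0 to 63.9 CPM in the Ash1L shRNA samples.

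Among the choroid plexus genes, *Ttr*, *Folr1* and *Otx2* were low in all samples. *Ttr*, which dominates the RNA of choroid plexus, had 0.43 and 1.37 CPM in the controls and 0.15 and 1.11 CPM in the Ash1L shRNA samples, *Folr1* stayed at or below 0.34 CPM and *Otx2* had 0 counts in 3 samples and 1.21 CPM in Ash1L shRNA sample 2. Of 12 genes 9 were tested, with 0 DOWN and 2 UP (*Aqp1*, 1.58, and *Slc4a5*, 2.21) and a median log2 fold change of 0.08. Relative to the control mean, their median was -0.25 in Ash1L shRNA sample 1 and 0.57 in sample 2. *Clic6* (3.33 CPM) and *Prlr* (5.84 CPM) were highest in sample 2 and were not called, while 4 of the 9 had a log2 fold change below 0. The summed level of the list, from 263 to 326 CPM in the controls and 256 and 172 CPM in Ash1L shRNA samples 1 and 2, was mostly *Enpp2*, which oligodendrocytes also express. Of 7 ependymal genes, 6 were tested and 2 were UP, *Tmem212* (3.67) and *Ccdc153* (2.60), with a median of 0.82. The summed level was 11.2 and 10.5 CPM in the controls, 10.5 CPM in Ash1L shRNA sample 1 and 21.3 CPM in sample 2. Of the red blood cell genes, *Hba-a1* and *Hba-a2* were listed at 0 in all 4 samples, and *Hbb-bs* and *Hbb-bt* were not among the symbols counted. Reads may be shared between such related genes and multiple-mapping settings are not given, so these zeros do not show an absence of blood. *Alas2*, the only one tested, had a log2 fold change of -0.27.

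**Figure D4:**
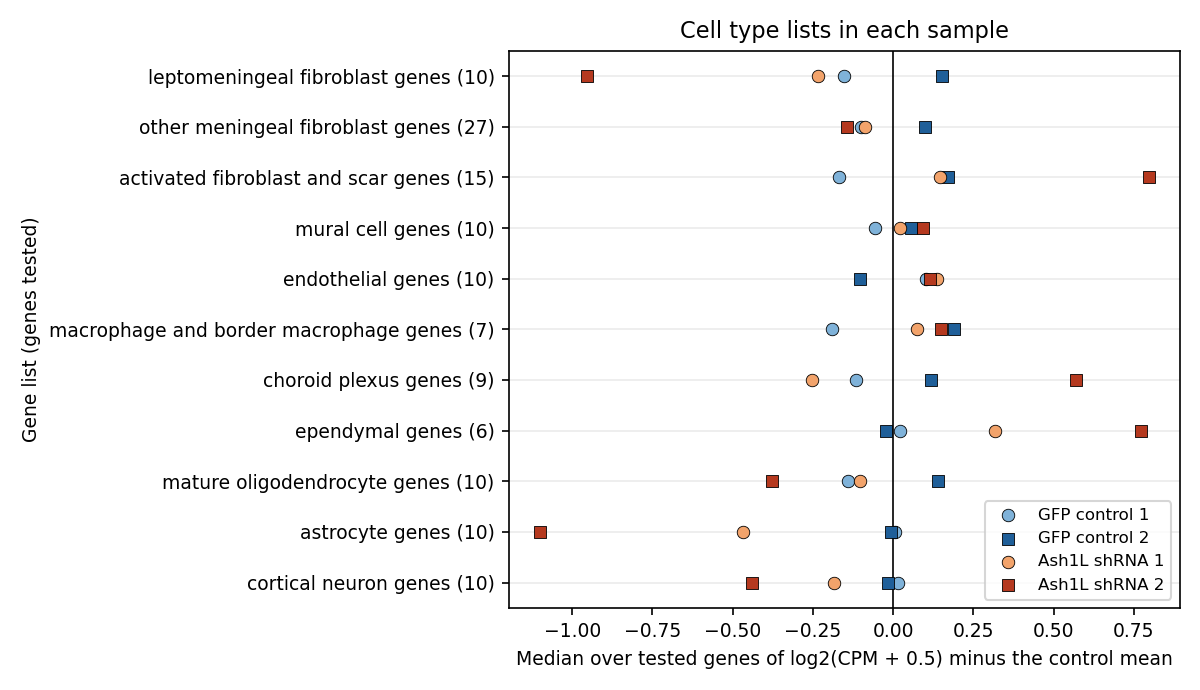
Median, over the tested genes of each list, of log2(CPM + 0.5) minus the mean of the control samples, in each of the 4 samples. The leptomeningeal genes reach -0.95 in Ash1L shRNA sample 2 and the astrocyte genes -1.10, whereas other meningeal fibroblast, mural and endothelial genes stay within 0.15 of the control mean in all 4.

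Partners of the 10 genes in their pathways were examined as lists. Among 15 barrier transporters, 14 were tested, 3 were DOWN and 1 was UP, with a median log2 fold change of -0.15 that became 0.11 without control sample 2. Beside *Slc6a13* and *Slc13a3*, *Slc22a2*, a carrier of organic cations, was DOWN (-1.64) at 2 to 23 counts, and *Abcc4*, an efflux pump, was UP (0.35). *Slc22a8*, which encodes OAT3, the close relative of OAT1, had 11.8 and 17.0 CPM in the controls and 12.7 and 10.6 CPM in the Ash1L shRNA samples. Its groups overlapped and it was not called, with a log2 fold change of -0.31. *Slc6a20b*, the paralog of *Slc6a20a*, had from 1.65 to 2.03 CPM and was not called (0.23), and reads of such paralogs may be shared.

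Of 12 other small leucine-rich proteoglycans, 10 were tested, with 0 DOWN, 1 UP (*Optc*, 1.44, at 4 to 24 counts) and a median log2 fold change of -0.32. *Bgn* (biglycan, -0.14), *Fmod* (fibromodulin, -1.11) and *Prelp* (-0.49) were not called. *Fmod* had 6.45 and 7.13 CPM in the controls, 5.07 CPM in Ash1L shRNA sample 1 and 1.11 CPM in sample 2, so that again sample 2 stood apart.

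Of the IGF genes, 15 of 16 were tested, 1 was DOWN and 2 were UP, with a median log2 fold change of 0.12. *Igfbp5* was DOWN (-0.62) and *Igfbp7* UP (0.72), both binding proteins for IGFs. *Igf2bp2*, an RNA-binding protein that binds *Igf2* mRNA, was UP, with 1.06 and 0.86 CPM in the controls, 5.002 and 4.10 CPM in the Ash1L shRNA samples and a log2 fold change of 2.27. *Igf2r* (0.12), *Insr* (-0.06) and *Igf1r* (-0.30) were not called. *H19*, the noncoding neighbour of *Igf2* in the same imprinted domain, had 0.43 and 1.11 CPM in the controls, 0.58 CPM in Ash1L shRNA sample 1 and 4.63 CPM in sample 2, where *Igf2* was lowest, and was not called.

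In the retinoic acid pathway 12 of 15 genes were tested, 0 were DOWN and 1 was UP, with a median log2 fold change of 0.05. The gene UP was *Rdh10*, the retinol dehydrogenase that acts before *Aldh1a2*, with 9.35 and 10.1 CPM in the controls and 12.1 and 22.4 CPM in the Ash1L shRNA samples (0.82). Its order of samples was that of *Aldh1a2*, with sample 2 far above the rest. *Crabp2*, a carrier of retinoic acid, had 0.50 and 1.43 CPM in the controls, 1.02 CPM in Ash1L shRNA sample 1 and 5.98 CPM in sample 2, and was not called. *Cyp26b1*, which degrades retinoic acid, had 4.46 and 12.4 CPM in the controls and 5.84 and 3.28 CPM in the Ash1L shRNA samples, with overlapping groups. *Aldh1a1* (0.17), *Rara* (0.37) and *Dhrs3* (-0.34) were not called.

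Of the prostaglandin genes 11 of 12 were tested, 0 were DOWN and 2 were UP, with a median log2 fold change of 0.25. *Ptgs1* (cyclooxygenase 1, 1.27) and *Ptges3* (0.35) were UP. *Ptgs2* (cyclooxygenase 2) had 46.9 and 27.4 CPM in the controls, 71.9 CPM in Ash1L shRNA sample 1 and 515 CPM in sample 2, and with that spread its log2 fold change of 2.99 (standard error 1.14) was not called. The cyclooxygenases make the substrate of the *Ptgds* enzyme, and both stood above the controls in both Ash1L shRNA samples while *Ptgds* stood below.

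The median profile of the 10 genes over the 4 samples, centred on the log2 scale, was 0.10 and 0.42 in the controls and 0.04 and -0.62 in the Ash1L shRNA samples. *Igf2* lay nearest to it, at a Euclidean distance of 0.10, and *Aldh1a2* (1.43) and *Lum* (1.24) lay farthest. Of the 14871 other genes with a mean of at least 1 CPM, the nearest 8 were *Rab14*, *Bmf*, *Mef2c*, *Zbtb22*, *Prune2*, *Zeb2*, *Ndufs4* and *Gria3*, at distances from 0.03 to 0.07. *Mef2c*, a transcription factor of cortical neurons, had 909 and 1105 CPM in the controls and 886 and 541 CPM in the Ash1L shRNA samples. Of these genes 22 were nearer to the median profile than *Igf2*, whereas 93.0% were nearer than *Aldh1a2* and 88.3% nearer than *Lum*.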

How the data were processed

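RNA-seq counts of 4 PFC samples, 2 GFP control and 2 Ash1L shRNA, were grouped by their titles. The authors aligned paired-end reads from stranded, rRNA-depleted libraries to mm10 with STAR and counted them with featureCounts, and what they deposited is 1 table of raw counts by gene symbol for each sample. Per the labels, reads were trimmed with Cutadapt and aligned with TopHat2 instead, and strand and multiple-mapping settings are not given in the sources used here. No source says which pools the samples came from, so p-values measure the spread between these samples.

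Counts were filtered with filterByExpr, TMM-scaled and tested in edgeR 4.0.16 (R 4.3.3) with the quasi-likelihood test, with Benjamini-Hochberg adjustment over 16232 genes. The standard error is the log2 fold change over the square root of F. The limits for DOWN and UP are those of the study. The fit was tested on simulated data. Positions and exonic lengths came from GENCODE vM21 by symbol. The members and lists were chosen with earlier results of these data known, and none of their values is independent support. Named genes are the members, called genes of each list, up to 3 of the most abundant of each list and the 8 nearest profiles. Others, among them single-gene ratios, were named after their values were seen. Alternatives were DESeq2 1.42.0, the likelihood ratio test, 3 other scalings (library size alone, RLE, upper quartile), other filters (a count of 1 in any sample or 10 in every sample), the replicate block, leaving out 1 sample at a time and a limit of 1.5-fold.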

Additional observations from a re-analysis of the deposited data

How the results depend on the processing

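The 10 log2 fold changes kept their sign in all 9 alternatives that kept the 4 samples, among them 3 other scalings. With 1 sample left out, *Slc47a1* ran from -0.30 without Ash1L shRNA sample 1 to 0.425 without control sample 2 (-0.15 without control sample 1), and *Dcn* from -0.0564 to 0.7345 (-0.0049). The count of members DOWN, 4, ran from 1 to 6 with 1 sample left out and fell to 1 without control sample 2. The count UP, 1, ran from 0 to 1 and was 0 with DESeq2, with the replicate block and with the crossed block. The median of the members ran from -0.98 to -0.29. Members with an adjusted p under 0.05 numbered 0, but 2 with DESeq2, 2 with the likelihood ratio test and from 0 to 7 with 1 sample left out, the 7 without Ash1L shRNA sample 1. The median of other barrier transporters, -0.15, ran from -0.3315 without Ash1L shRNA sample 1 to 0.11 without control sample 2.

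Over all genes, 1344 were DOWN and 1397 UP, and 491 and 765 at the 1.5-fold limit. With 1 sample left out the counts ran from 306 to 2718 DOWN and from 423 to 2368 UP. Genes with an adjusted p under 0.05 numbered 1, and 420 with DESeq2, 479 with the likelihood ratio test, 34 with no filter beyond 1 count and from 0 to 2502 with 1 sample left out. *Ash1l* ran from -0.97 to -0.31.

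The labels number the samples 1 and 2 in both groups, no source says that a number marks shared material, and the correlation of same-numbered deviations from the group means was -0.13. With the replicate block 3 members were DOWN and 0 UP, and 0 genes had an adjusted p under 0.05 (edgeR). With the pairing crossed, chosen after seeing the data, 6 members were DOWN and 0 UP, and 16 genes passed. The causes of these differences were not tested. *Slc22a6*, *Ogn* and *Slc47a1* rest on fewer than 50 counts in at least 1 sample. Those values carry a larger relative counting error than the values of the other members.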
